A study of Saccharomyces cerevisiae with 2 samples.

Results

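Genes of the nuclear RNA polymerases of budding yeast, Saccharomyces cerevisiae, were compared between cells given 3% pyruvate, a non-fermentable carbon source, and cells given 2% glucose. The members were all genes whose symbol is RPA, RPB or RPC followed by a number, together with RPO21, RPO26, RPO31, RET1, the initiation factor genes RRN3, RRN6, RRN7, RRN11, TFC1, TFC3, TFC4, TFC6, TFC7, TFC8, BRF1 and BDP1, and the regulator MAF1. This gave 44 of the 5598 genes measured, of which 31 encode subunits and 13 encode factors or the regulator. Each of 2 arrays of 2 colours carried RNA of both conditions, with glucose RNA in Cy5 on array 1 and in Cy3 on array 2. The sources used here name no strain, growth phase or time of harvest. No label says that the arrays came from separate cultures, so p-values cover the spread between 2 hybridisations, which may be technical only.

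Eukaryotic cells divide nuclear transcription among 3 polymerases. Pol I makes the precursor of the large ribosomal RNAs, Pol II makes messenger RNAs and many small RNAs, and Pol III makes transfer RNAs and the 5S ribosomal RNA. Each enzyme has its own pair of large catalytic subunits and its own stalk, Pol I and Pol III share an alpha-like pair of assembly subunits, and a set of small subunits is common to all of them. In yeast, Pol I and Pol III account for most of the RNA made in growing cells, and their activity follows the growth rate.

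Every value below is a log2 ratio of pyruvate over glucose, with the sign of array 1 turned, and a mean is given ± SD with n = 2. The number of arrays limits the precision. The order Cy5 over Cy3 is likely and not stated by a source; in that order ADH2, the alcohol dehydrogenase gene repressed by glucose, stood at 5.84 and 6.28 on the arrays and FBP1, of gluconeogenesis, at 5.69 and 5.37. In the opposite order every sign below would turn. The median of all genes was 0.18 on array 1 and 0.02 on array 2, so that centring each array on its median lowers a mean by 0.10. A ratio gives a share of the messenger RNA and not an amount per cell, so fewer transcripts in every cell and a change in a part of the cells cannot be told apart, and it says nothing about levels of one gene against another. Genes were called at an adjusted p under 0.05 by limma, a linear model that moderates each gene's variance towards that of all genes.

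In pyruvate, most genes specific to Pol I and to Pol III were lower, and most genes specific to Pol II were not called. Of the 7 Pol I-specific subunit genes 6 fell, of the 10 Pol III-specific genes 6 fell, and of the 7 Pol II-specific genes 1 fell, against 17.2% of all genes called lower. Of all 31 subunit genes, 15 fell and 0 rose by limma at this threshold, where 27.1% of all genes were called higher. At an unadjusted p under 0.05 by limma, 2 of the 31 were higher, against 1870 of all 5598 genes. Over all 44 members, 18 fell, 2 rose and 24 did not pass at the adjusted threshold. The genes that rose were MAF1 and TFC8. Without moderation of the variance, a test that rests on 1 residual degree of freedom, 0 members were called. By that test 17 of the 44 members had an unadjusted p under 0.05, against 1580 of all 5598 genes.

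**Figure D1:**
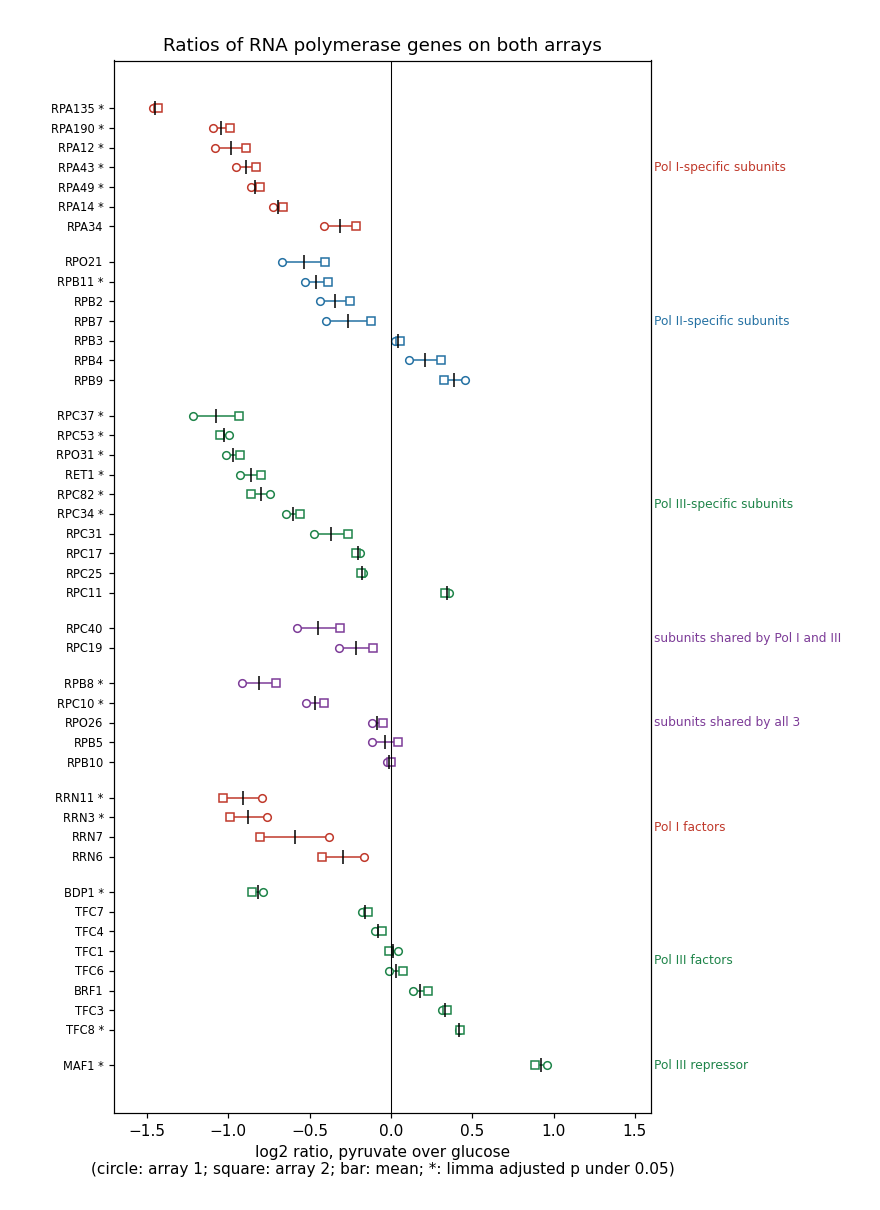
Log2 ratio of pyruvate over glucose (horizontal axis) of the 44 members, by group, on array 1 (circles) and array 2 (squares), with the mean as a bar and an asterisk for genes past limma's test. The Pol I-specific genes lie between means of -1.45 and -0.31, the Pol II-specific genes between -0.54 and 0.39, and MAF1 is highest at 0.92.

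The median of the Pol I-specific genes was -0.95 on array 1 and -0.83 on array 2. The median of the Pol III-specific genes was -0.69 and -0.68, and that of the Pol II-specific genes was -0.40 and -0.12. The Pol I median was thus below the Pol II median on both arrays, by -0.56 and -0.71, and the Pol III median was below it too, as Pol II exceeded Pol III by 0.30 and 0.55. Between Pol I and Pol III the difference was smaller, at -0.26 and -0.15. These differences of medians were not tested, because an exact permutation test over 2 arrays cannot give a p below 0.5. Relative to the median of all genes, the medians of the means were -0.99 for Pol I, -0.80 for Pol III and -0.36 for Pol II.

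Among the Pol I-specific subunits the lowest ratio belonged to RPA135, which encodes the second largest subunit and, with the largest, forms the active centre. It stood at -1.46 on array 1 and -1.43 on array 2, a mean of -1.45 ± 0.02 or 2.73-fold lower (limma adjusted p = 0.0127). Of all genes measured, 1.98% had a lower mean. Its 2 features on the array, with -1.45 and -1.47 on array 1 and -1.43 and -1.44 on array 2, differed by less than 0.05.

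RPA190, the gene of the largest subunit, was at -1.09 and -0.99, a mean of -1.04 ± 0.07 (limma adjusted p = 0.0156). RPA12, whose product is a zinc ribbon subunit that takes part in cleavage of the transcript, was at -1.08 and -0.89, a mean of -0.98 ± 0.13 (limma adjusted p = 0.0190). Both changes were close to 2-fold, and in RPA12 the features lay further apart than in the other Pol I genes, by 0.23 on array 1. RPA43, a stalk subunit through which Pol I binds the initiation factor Rrn3, stood at -0.95 and -0.83, and RPA14, its partner in the stalk, at -0.73 and -0.66. RPA49, part of a heterodimer that resembles the Pol II factor TFIIF, was at -0.86 and -0.81. These 3 genes passed limma with an adjusted p of 0.0189, 0.0225 and 0.0188.

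RPA34 encodes the partner of the RPA49 product in that heterodimer, and it was the Pol I-specific gene that did not pass. It was measured by 1 feature, at -0.41 and -0.22, a mean of -0.31 ± 0.14 (limma adjusted p = 0.104). The other 6 Pol I-specific genes had both array values below those of RPA34. All 7 were lower on array 1 than on array 2, as were 25 of all 31 subunit genes and 2501 of all 5598 genes. Only RPA135 among the 44 members was at least 2-fold lower on both arrays, a limit that 4.81% of all genes passed.

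Ratios of the Pol III-specific genes spread more widely, from -1.07 to 0.34. RPC37 and RPC53, which encode the heterodimer of Pol III that resembles TFIIF and acts in termination and reinitiation, were the lowest. RPC37 stood at -1.22 and -0.93, a mean of -1.07 ± 0.20 (limma adjusted p = 0.0205), and RPC53 at -0.998 and -1.05, a mean of -1.02 ± 0.04 (limma adjusted p = 0.0154). RPO31, the gene of the largest subunit, was at -1.01 and -0.93, and RET1, of the second largest, at -0.93 and -0.80. The catalytic pair thus fell by 1.96-fold and 1.82-fold (limma adjusted p of 0.0166 and 0.0196).

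RPC82, RPC34 and RPC31 encode a trimer found in Pol III alone, which serves initiation and contacts TFIIIB. RPC82, with 1 feature, was at -0.74 and -0.86, and RPC34 at -0.65 and -0.56. Both fell (limma adjusted p of 0.0207 and 0.0286). RPC31 was at -0.48 and -0.26, a mean of -0.37 ± 0.15, and did not pass (adjusted p = 0.0839). The stalk genes of Pol III were close to 0 on both arrays. RPC25 was at -0.17 and -0.18 and RPC17 at -0.19 and -0.22 (limma adjusted p of 0.187 and 0.153). RPC11, whose product carries the cleavage activity of Pol III and is needed for termination, was the Pol III gene above 0, at 0.35 and 0.34 (adjusted p = 0.0631).

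Of the Pol II-specific genes, the one called lower was RPB11, which encodes the smaller alpha-like subunit, with 1 feature at -0.53 and -0.39 (mean -0.46 ± 0.10, limma adjusted p = 0.0477). RPO21, the gene of the largest subunit, which carries the repeated C-terminal domain, had a lower mean but a wider spread, at -0.67 and -0.40, and missed the threshold (mean -0.54 ± 0.19, adjusted p = 0.0534). With the arrays centred on their medians RPO21 passed as well (limma adjusted p = 0.0261), which makes 2 of 7, where 22.5% of all genes were called lower and 24.9% higher. RPB2, of the second largest subunit, was at -0.44 and -0.25 and did not pass (adjusted p = 0.0866).

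The remaining Pol II-specific genes lay on both sides of 0. RPB7, a stalk gene, was at -0.40 and -0.12, whereas RPB4, its partner in the stalk, was at 0.11 and 0.31. RPB3, the larger alpha-like subunit gene, was at 0.03 and 0.06, and after centring its mean was -0.06. RPB9, of the zinc ribbon subunit that bears on start site choice and fidelity, was the highest subunit gene of all, at 0.45 and 0.33 (mean 0.39 ± 0.09, adjusted p = 0.0609).

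**Figure D2:**
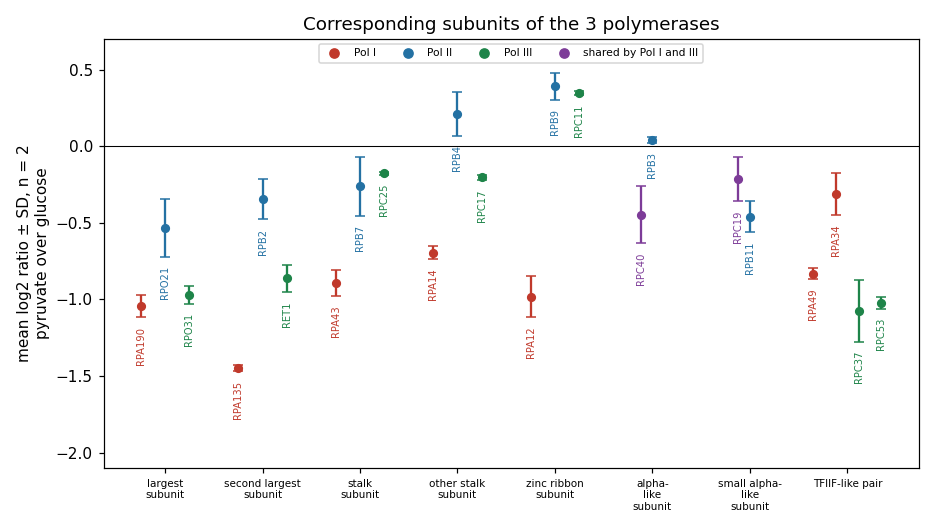
Mean log2 ratio ± SD over 2 arrays (vertical axis) of subunits that hold corresponding positions in Pol I, Pol II and Pol III. Pol I genes are lowest at the second largest, both stalk and the zinc ribbon positions, at -1.45, -0.89, -0.70 and -0.98. At the largest subunit Pol I is lowest too, at -1.04, but close to Pol III at -0.97. The Pol III stalk genes lie at -0.18 and -0.20.

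Subunits that hold the same place in the 3 enzymes can be set side by side. At the largest subunit, RPA190 was below RPO21 by -0.43 on array 1 and -0.59 on array 2, while RPA190 and RPO31 differed by only -0.08 and -0.06. At the second largest, RPA135 was below RPB2 by -1.03 and -1.18 and below RET1 by -0.54 and -0.63. For the catalytic pair, Pol II was therefore above both other enzymes on both arrays, with RPB2 over RET1 by 0.49 and 0.55 and RPO21 over RPO31 by 0.34 and 0.53.

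At the stalk, Pol II and Pol III separated on both arrays only between RPB4 and RPC17. RPA43 was below its Pol III counterpart RPC25 by -0.78 and -0.65, and RPB7 and RPC25 differed by -0.23 and 0.06, with no common sign. RPA14 was below RPC17 by -0.54 and -0.45 and below RPB4 by -0.84 and -0.97, and RPB4 was above RPC17 by 0.301 and 0.525. At the zinc ribbon position RPA12 was below RPB9 by -1.53 and -1.22 and below RPC11 by -1.43 and -1.22, whereas RPB9 and RPC11 differed by 0.10 and -0.01. The Pol III genes thus stood near those of Pol I at the largest subunit and near those of Pol II at the zinc ribbon. They lay between the other enzymes at the second largest subunit and at the stalk position of RPC17. None of these differences between genes was tested, for the reason given for the medians.

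The heterodimers that resemble TFIIF occur in Pol I and Pol III. Both Pol III members fell, at means of -1.07 and -1.02, and of the Pol I members RPA49 fell, at -0.83, with RPA34 at -0.31.

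Genes of shared subunits were split. RPC40 and RPC19 encode the alpha-like pair of Pol I and Pol III, and neither passed: RPC40 was at -0.58 and -0.31 (limma adjusted p = 0.0718) and RPC19 at -0.32 and -0.11 (adjusted p = 0.199). At an unadjusted p under 0.05 by limma 1 of the 2 was lower, against 1310 of all 5598 genes. With centred arrays RPC40 passed with a limma adjusted p of 0.0433. The medians of RPC40 and RPC19, -0.45 and -0.21 on the arrays, lay above those of the subunits specific to Pol I or to Pol III. RPB3 and RPB11, the corresponding pair of Pol II, differed from them in no common way: RPC40 was below RPB3 by -0.61 and -0.37, and RPC19 was above RPB11 by 0.21 and 0.28.

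Of the 5 genes for subunits common to all 3 enzymes, 2 fell and 3 did not pass, against 17.2% of all genes called lower. RPB8 was the lowest of the 5, at -0.91 and -0.71, a mean of -0.81 ± 0.15 (limma adjusted p = 0.0243). RPC10, a small zinc-binding subunit also known as Rpb12, was at -0.52 and -0.41 (adjusted p = 0.0437). By contrast RPO26, RPB5 and RPB10 had means of -0.08, -0.04 and -0.01, and their 6 array values lay between -0.12 and 0.04. RPB8 was thus below these genes by more than the spread between the arrays, although its product is present in the same enzymes.

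Of the 4 genes of factors that recruit Pol I, 2 fell and 2 did not pass, against 17.2% of all genes called lower. Rrn3 joins the polymerase to the core factor, which consists of Rrn6, Rrn7 and Rrn11. RRN11 stood at -0.80 and -1.03, a mean of -0.91 ± 0.17, and RRN3 at -0.76 and -0.99, a mean of -0.88 ± 0.16, and both fell (limma adjusted p of 0.0222 and 0.0228). RRN7 was at -0.38 and -0.80, and RRN6 at -0.16 and -0.42. These genes did not pass (adjusted p of 0.0722 and 0.143), though RRN7 did with centred arrays (limma adjusted p = 0.0152).

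The factor genes of Pol I differed from its subunit genes in the order of the arrays. All 4 factor genes were lower on array 2, where glucose carried Cy3, with array 2 minus array 1 divided by 2 at a median of -0.12. All 7 Pol I-specific subunit genes were lower on array 1, and the same quantity had a median of 0.05. With centred arrays these medians were -0.05 for the factor genes and 0.13 for the subunit genes, and all 4 factor genes were still lower on array 2. Before centring, 25 of all 31 subunit genes and 2501 of 5598 genes were lower on array 1. With centring, 0 of the 31 and 1870 of the 5598 were lower on array 2. The order in the Pol I subunit genes was thus not particular to Pol I. Of the 25 Mediator genes compared below, 4 were lower on array 1 before centring, and 11 were lower on array 2 with centring. A lower value on array 2 was thus not particular to the Pol I factor genes. Each dye order was used on 1 array, so the part of the dyes in the order of the arrays cannot be told apart from that of the arrays.

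**Figure D3:**
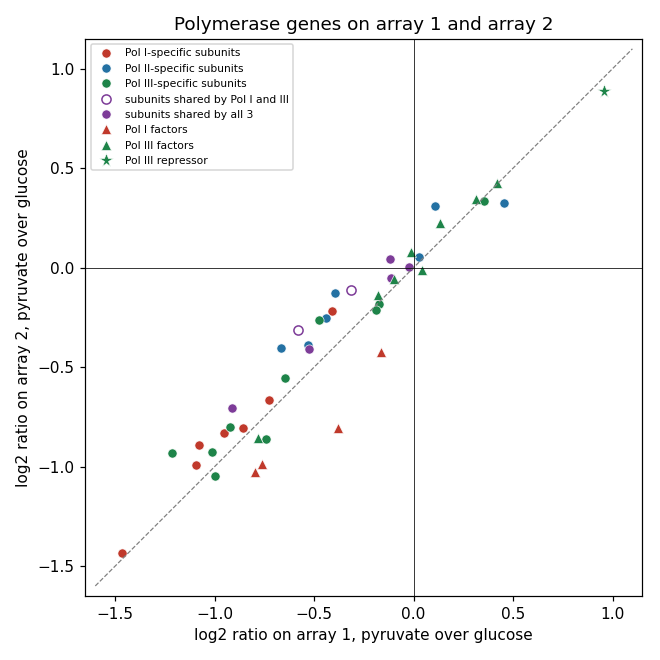
Log2 ratio of the 44 members on array 1 (horizontal axis) and array 2 (vertical axis), pyruvate over glucose, with a dashed line of equal values and open circles for the subunits shared by Pol I and Pol III. The 4 Pol I factor genes (red triangles) lie below the line and the 7 Pol I-specific subunit genes (red circles) above it.

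Of the 8 genes of Pol III factors, 1 fell, 1 rose and 6 did not pass, shares below the 17.2% of all genes called lower and the 27.1% called higher. TFIIIC, which recognises the internal promoters of transfer RNA genes, is made of the products of TFC1, TFC3, TFC4, TFC6, TFC7 and TFC8. None of these 6 genes was called lower by limma. None had a lower ratio at an unadjusted p under 0.05 either, where 1310 of all 5598 genes had one. TFC8 rose, at 0.42 and 0.43 (limma adjusted p = 0.0451), but did not pass with centred arrays, where its mean was 0.32 (limma adjusted p = 0.145). TFC3, of the largest subunit, was at 0.31 and 0.35 (adjusted p = 0.0683). TFC1, TFC4, TFC6 and TFC7 had means of 0.02, -0.08, 0.03 and -0.16, and with centred arrays those of TFC1 and TFC6 turned to -0.09 and -0.07.

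TFIIIB, which TFIIIC places upstream of the start site and which then holds Pol III there, contains Brf1, Bdp1 and the TATA-binding protein. BDP1 was at -0.78 and -0.86, a mean of -0.82 ± 0.05, and fell by 1.77-fold (limma adjusted p = 0.0193). BRF1 was at 0.13 and 0.23 and did not pass (adjusted p = 0.199). SPT15, the gene of the TATA-binding protein, which serves all 3 polymerases and is not a member by name, fell, with 1 feature at -0.70 and -0.54 (limma adjusted p = 0.0312). Of the TFIIIB genes, BDP1 and SPT15 were therefore called lower and BRF1 was not. PZF1, the gene of TFIIIA, which serves 5S ribosomal RNA alone, was at -0.16 and -0.56 and did not pass (adjusted p = 0.152).

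MAF1, the conserved repressor of Pol III that acts when nutrients are poor, had the highest ratio of all members. It stood at 0.96 and 0.89, a mean of 0.92 ± 0.05 or 1.89-fold higher (limma adjusted p = 0.0171). Its features gave 0.96 and 0.96 on array 1 and 0.90 and 0.87 on array 2. With centred arrays its mean was 0.82 (limma adjusted p = 0.00671). Among all genes 83.6% had a lower mean, so that its rise was not unusual in size, and 27.1% of all genes were called higher.

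Other genes of transcription served for comparison. Of 6 genes of the upstream factors of Pol I and the TATA-binding protein, 1 rose and 1 fell, where 27.1% of all genes were called higher and 17.2% lower. The gene that rose was UAF30, of the upstream activating factor, with 1 feature at 1.22 and 0.77 (limma adjusted p = 0.0335), and the one that fell was SPT15. The feature of UAF30 lies at a ratio of small whole numbers on array 1, as dim spots do, and without such features the gene has no value. RRN5, RRN9, RRN10 and HMO1 did not pass.

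The 19 genes listed for the general factors of Pol II are a choice and not the full set. The list also holds DST1, of transcript elongation. Of these 19 genes 5 fell and 2 rose, while the other 12 missed the threshold. The list median was 0.02. Over all genes 17.2% were called lower and 27.1% higher, with a median of 0.10. RAD3, a helicase gene of TFIIH that also serves DNA repair, was the lowest, with 1 feature at -0.94 and -0.93 (limma adjusted p = 0.0165). TFB5, another TFIIH subunit gene, rose, with 1 feature at 0.63 and 0.88 (limma adjusted p = 0.0298). TFB5 did not pass when the arrays were centred and also scaled to equal spread. Of 25 Mediator genes, 3 rose and 0 fell by limma, against 27.1% called higher and 17.2% called lower over all genes. At an unadjusted p under 0.05 by limma 2 were lower, against 1310 of all 5598 genes. The Mediator median was 0.25, against 0.10 over all genes. The highest were SRB7, at 1.42 and 1.20, and SRB6, at 0.83 and 0.73 (limma adjusted p of 0.0154 and 0.0211). With centred arrays the general factors had 8 lower and 3 higher and Mediator 1 lower and 3 higher, while the share of all genes called lower went from 17.2% to 22.5%.

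Of 7 genes for assembly and nuclear import of the polymerases, 3 fell, 4 did not pass and 0 rose by limma. Over all genes 17.2% were called lower and 27.1% higher. At an unadjusted p under 0.05 by limma 1 of the 7 was higher, against 1870 of all 5598 genes. BUD27, a prefoldin-like gene, was at -0.70 and -1.10 and RBA50 at -0.78 and -0.96 (limma adjusted p of 0.0352 and 0.0211). The list median was -0.42, against 0.10 for all genes.

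**Figure D4:**
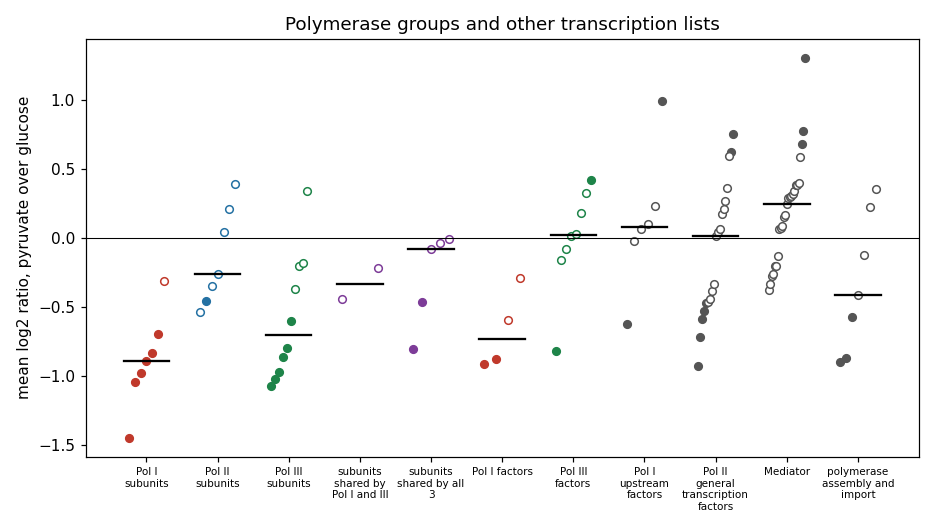
Mean log2 ratio over 2 arrays (vertical axis) of each gene in the groups of members with more than 1 gene (coloured) and in the comparison lists (grey), with filled points for genes past limma's test and a bar at the median. The medians are -0.89, -0.26 and -0.70 for Pol I-, Pol II- and Pol III-specific subunits, 0.02 for the general factors of Pol II and 0.25 for Mediator.

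The position of the genes adds a further description. By the order of protein-coding genes in RefSeq's annotation and the strand in their systematic names, RPA190 (YOR341W) and RPA43 (YOR340C) are neighbours read away from each other, and both fell. Of the 12 measured genes that lie next to a called-lower subunit gene in this divergent arrangement, 5 were called lower and 1 higher. Since RPA190 and RPA43 count each other, without these members the count was 3 of 10 lower, against 17.2% of all genes and 28.6% (8 of 28) of the divergent neighbours of all members. The 8 of 28 still include RPA190 and RPA43, so these shares are not of like sets. In any arrangement, 10 of the 33 neighbours of all members called lower were lower and 6 higher. Of the 85 neighbours of all members, called or not, 22 were lower and 25 higher, where 27.1% of all genes were called higher. Both counts of lower neighbours include RPA190 and RPA43. The 3 divergent neighbours called lower were DBP7, a helicase gene of ribosome assembly beside RPC37, at a mean of -1.10 ± 0.003, SAS10, of small subunit processing, beside RPC53, at -1.31 ± 0.18, and CRS1, a cysteinyl-tRNA synthetase gene beside RPA49, at -0.62 ± 0.13 (limma adjusted p of 0.0148, 0.0160 and 0.0328). The gene called higher was QCR2, of respiratory complex III, which stands back to back with RPC82. QCR2 has 1 feature and was at 2.51 ± 0.03 (limma adjusted p = 0.0115). RRN11 has a similar neighbour in CAT2, the carnitine acetyltransferase gene, with 1 feature at 3.24 ± 0.32 (limma adjusted p = 0.0126). These flanking genes were chosen after their values were seen.

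Measurement error within the arrays was small for the members. Of the 44, 32 were read by 2 features and 12 by 1, and the features of a gene differed by a median of 0.04 and at most 0.23 on an array. The SD between arrays had a median of 0.08 over the members, against 0.13 over all genes, and was largest in RRN7 at 0.30. The smallest change called anywhere on the arrays was 0.40 in size, and members closer to 0 than this are not shown to be unchanged.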

How the data were processed

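Total RNA was amplified, labelled and hybridised with Agilent reagents per the labels, and the dyes were swapped between arrays. The authors' deposited table holds 10807 features per array as log2 channel ratios, with 10 and 6 values missing. The base was read from the values; how the arrays were scanned, background-corrected and normalized is not given in the sources used here. Array 1 (glucose in Cy5) was multiplied by -1. Over features of named genes the unturned arrays had a Pearson r of -0.81, and over all features 0.157.

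The platform's annotation names 9202 features, 9194 of them matched to current RefSeq symbols. Features were averaged per gene. All 5598 genes were fitted in R 4.3.3 with limma 3.58.1 (lmFit, eBayes; 1 residual and 1.67 prior degrees of freedom), with Benjamini-Hochberg adjustment over all genes. Tables and figures used matplotlib 3.10.9 and pandas 2.3.3 in Python 3.11.15. On simulated data for this comparison with 5598 genes, 0% of genes changed 1.5-fold, 0.5% at 2-fold and 62.7% at 4-fold were recovered, with 5.69% of calls false. Only 200 genes were changed in the simulation, whereas 2482 were called in the data. Its rates therefore do not describe the calls made here.

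Members, lists and tests were chosen with earlier results of these data known. All members may be named, and of each comparison list the 2 genes with the largest absolute mean of 1 direction, besides flanking genes. Alternatives were centring, scaling, robust or no moderation, other summaries of features, leaving out features at small whole-number ratios, other thresholds and single arrays. A planned count of promoter motifs was not made, and coordinates are not given, as no source names a genome build.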

Additional observations from a re-analysis of the deposited data

How the results depend on the processing

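The counts were 18 members lower, 2 higher, and 6, 1 and 6 lower for Pol I-, Pol II- and Pol III-specific subunits. Without moderation of the variance all 5 were 0, and 10 of 5598 genes were called against 2482. With arrays centred, or centred and scaled, 1 member was called higher and 2 Pol II-specific genes lower, RPB11 and RPO21. RPO21 also passed, giving 2, without features at small whole-number ratios. None of its own features was left out there and its mean stayed at -0.535. Its call thus changed through the fit and adjustment over all genes. At an adjusted p under 0.1, 5 members were higher and 3 Pol II-specific genes lower. At least 2-fold on both arrays, with no test, were 1 member lower, 0 higher, and 1, 0 and 0 genes of Pol I, Pol II and Pol III. On 1 array alone at this fold, with no test, 3 to 5 members were lower and 0 higher. Of the 3 polymerases 1 to 3, 0 and 1 to 2 genes were lower. No share of all genes is given at an adjusted p under 0.1 or on 1 array alone. Those counts therefore cannot be called large or small. RPC10 did not pass with 1 feature a gene. The median was -0.89 for Pol I, -0.99 both with centring and with centring and scaling; for Pol III it was -0.70 and then -0.80 in both; single arrays gave -0.95 to -0.83, -0.69 to -0.68 and, for Pol II, -0.40 to -0.12. Centring turned uncalled means of RPB3 (-0.0596), TFC1 (-0.0861) and TFC6 (-0.0691), as did centring with scaling (-0.0541, -0.0832 and -0.0618). The other called members, except TFC8, kept their calls under all of these alternatives that test with moderation. Calls over all genes moved from 963 lower and 1519 higher to 1261 and 1392 with centring. Each ratio compares both conditions within 1 array, so the fit is already paired by array. The table gives no signal over background, so dim or saturated spots could not be told from others.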
